A study of Homo sapiens with 6 samples.

Results

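Solute carriers are the membrane proteins whose gene symbols begin with SLC, a family number, the letter A and a member number. Every region of the deposited expression table whose gene symbol starts in that form was taken, with 1 exception, SLC2A3, which was left out. That gave 143 regions of 14686, belonging to 139 gene symbols of 9588, in 35 families. For 135 genes there was 1 region, and for the other 4 (SLC38A10, SLC2A11, SLC26A6 and SLC37A3) the region with the highest mean over the libraries was used. The name rule also takes in 3 symbols that are not carriers: SLC9A3R1 and SLC9A3R2, scaffold proteins that bind sodium-hydrogen exchangers, and SLC7A6OS, a gene on the strand opposite SLC7A6. These stay in the counts, so 136 of the 139 are carriers.

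A cell takes up and releases most of its sugars, amino acids, metals, vitamins and inorganic ions through solute carriers, which move a substrate down its own gradient or couple it to the gradient of sodium, protons or a second substrate. Most carriers sit in the plasma membrane, the SLC25 family lies largely in the inner mitochondrial membrane, and others serve lysosomes, the Golgi or secretory vesicles. Several amino acid carriers work as pairs, in which a heavy chain (SLC3A2 or SLC3A1) brings a light chain of the SLC7 family to the surface. Pluripotent cells divide quickly and are known for a high demand for glucose, glutamine and other amino acids, while the gut, liver and pancreas that come from endoderm rely on carriers for absorption and secretion.

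The libraries came from the human embryonic stem cell (hESC) line H9 at passage 51, an established cell line. Undifferentiated cells, labelled hESC, grew on growth-factor-reduced matrigel in medium that mouse embryonic fibroblasts had conditioned. The second group, labelled endoderm, was H9 after 6 days in RPMI with activin A at 100 ng/ml, with serum absent for the initial 24 h, at 0.2% for the next 24 h and at 2% from then on, and with a change of medium at day 3. Each group has 3 libraries, labelled G1, G1/S and S, taken at 0, 2 and 3 h for hESC (day 0) and at 0, 3 and 6 h for endoderm (day 6). The labels do not name the event that starts the clock or the way cells were brought into a phase. Cell type, medium and serum change together between the groups and cannot be told apart, and there is no second library of the same type and phase.

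Expression was measured by 3′ RNA sequencing, which reads the ends of polyadenylated transcripts. Values below are signal: the reads of a region divided by its library's size factor, as deposited. Total reads per library ran from 2502792 to 6203079, and 1 read was worth 0.591 to 1.71 units of signal. A region with no read could therefore have up to 3 reads' worth of signal, 1.77 to 5.13 units depending on the library, from counting error alone. Checked against defining genes, 8 of 8 definitive endoderm markers were higher in endoderm (median log2 difference 4.59, against 0.02 over all regions), and 3 of 8 hESC markers (SOX2, DNMT3B and UTF1) were lower. The other 5 hESC markers overlapped between the types and did not pass, with log2 differences of -0.01 for POU5F1, -0.67 for ZFP42, 0.98 for TDGF1, 0.45 for DPPA4 and 0.41 for LIN28. Of markers of other fates, 2 of 4 for mesoderm (TWIST1 and MIXL1), 2 of 3 for neuroectoderm (PAX6 and OTX2) and 2 of 3 for liver (APOA1 and HNF4A) were also higher. The third liver marker, TTR, fell to 0 in all 3 endoderm libraries, and both trophoblast markers with a region (KRT7 and TFAP2C) fell. Of 5 mesenchymal markers VIM rose and COL1A1 and THY1 fell. Summed mesenchymal markers ran from 7795 to 10112 in hESC and from 5152 to 7545 in endoderm. Their part in the results below was not tested.

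Between hESC and endoderm, 24 of the 139 solute carrier genes (17.3%) changed, against 14.5% of all 14657 regions tested. Of these, 14 rose in endoderm (10.1%, against 6.9% of all regions) and 10 fell (7.19%, against 7.6%). By log2 difference, the largest rises were of a sodium-phosphate carrier (SLC34A2) and a sodium-coupled sugar carrier (SLC5A9). The largest falls were of an iodide carrier (SLC5A5) and a vesicular nucleotide carrier (SLC17A9). Amino acid carriers made up 5 of the 14 genes that rose, and mitochondrial carriers 3 of the 10 that fell. A change here means a Benjamini-Hochberg adjusted p under 0.05 over all regions tested, from limma on log2(signal + 1) with terms for cell type and phase. Differences are endoderm minus hESC on that scale ± their standard error, which understates the change of regions with few reads. Since no type and phase was sequenced more than once, the p-values measure only how evenly the difference recurs over the phases, which may be technical spread. In bulk samples, fewer cells of a type and less RNA per cell cannot be told apart.

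Over all 139 genes the median difference was -0.18, with 62 above 0 and 77 below, beside 0.02 over all regions. The signal of every endoderm library lay above that of every hESC library for 20 genes (14.4%, against 14.7% of all regions), and below it for 26 (18.7%, against 18.7%). All 24 called genes are among these 46, and 22 others did not pass the test. The calls are spread over 17 of the 35 families. They rest largely on the G1/S libraries: without the endoderm G1/S library 3 genes passed (against 4.02% of all regions), and without the hESC one 4 passed (against 2.91%). The 3 genes common to both are SLC7A5, SLC3A2 and SLC5A9, and the additional gene is SLC34A2. Without the hESC or the endoderm S library 8 and 11 genes passed (against 6.48% and 8.18% of all regions). Without the hESC or the endoderm G1 library 26 and 25 passed (against 15.3% and 16.4%). In these fits, leaving out either library of a phase gives the same difference between the types. The 6 fits are therefore not 6 separate checks. Of the 6, SLC34A2 passed in 5, and SLC44A3, SLC38A5, SLC17A9 and SLC15A3 in 4. SLC4A2, SLC7A4 and SLC43A2 passed in 3, and 10 genes in the 2 fits that leave out a G1 library. SLC10A3, SLC39A14 and SLC2A11 passed in 0 of the 6 and by limma hold only with all libraries.

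**Figure D1:**
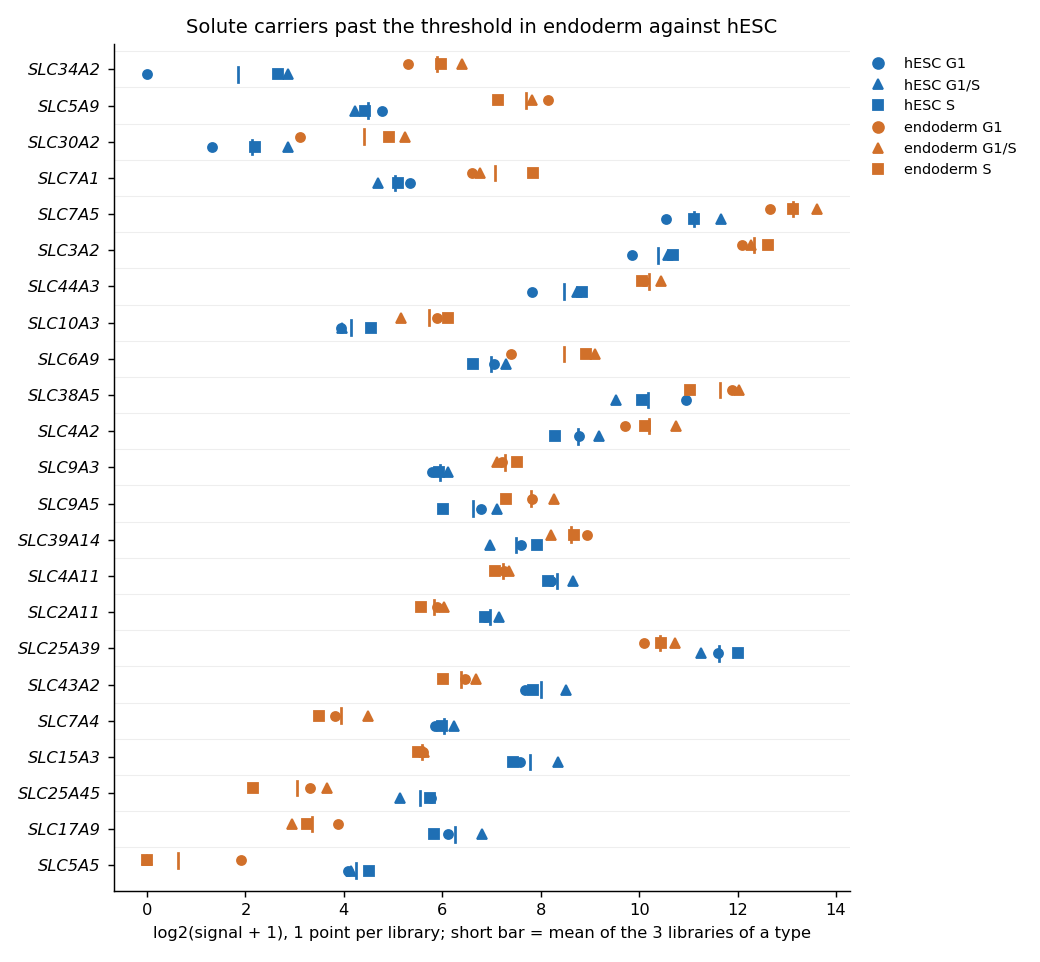
Signal of 23 of the 24 solute carrier genes that passed the test between endoderm and hESC, 1 row per gene, on a log2(signal + 1) axis. Points are single libraries, with blue for hESC, orange for endoderm and the marker shape for the phase; in every row the 3 endoderm points lie on one side of the 3 hESC points, above them for 14 genes and below them for 9.

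Solute carriers as a whole held a small part of each library. In the order G1, G1/S and S, they took 1.13%, 1.13% and 1.20% of all hESC signal and 1.33%, 1.29% and 1.20% of endoderm signal. What that share was made of differed, with genes classed by the kind of substrate their family carries. Amino acid carriers held 26.6%, 28.4% and 29.1% of it in the hESC libraries and 44.1%, 49.8% and 53.6% in the endoderm libraries. Mitochondrial carriers went the other way, from 24.2%, 19.96% and 22.6% to 12.3%, 11.1% and 10.7%. SLC7A5 alone held 3.53%, 6.55% and 5.04% of solute carrier signal in hESC, and 12.98%, 18.2% and 17.5% in endoderm. By mean signal the highest region in hESC was that of the glutamine carrier SLC1A5, and in endoderm that of SLC7A5. The 10 highest regions of each library together held 51.2% to 52.5% in hESC and 58.9% to 64.1% in endoderm. These shares compare regions of different genes, which reads of transcript ends allow without a correction for length. They cover only genes with a region, which SLC25A6, SLC40A1, SLC11A2 and SLC30A1 lack.

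**Figure D2:**
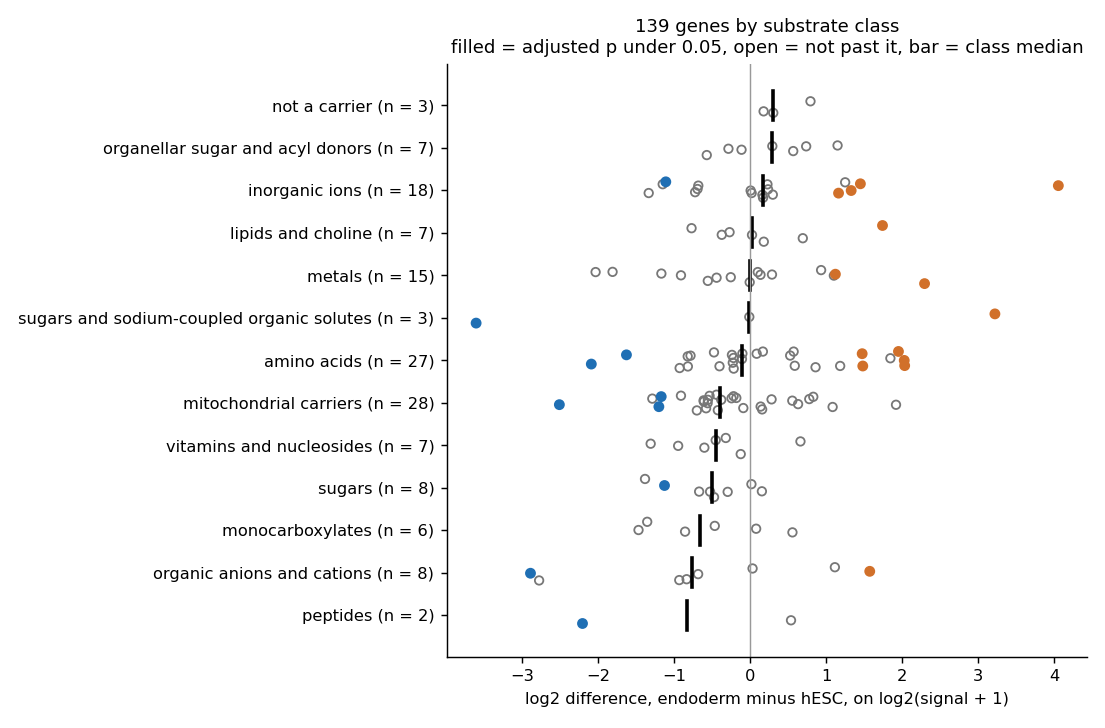
Log2 difference (endoderm minus hESC) of each of the 139 genes, grouped by the kind of substrate its family carries; filled points passed the test, open points did not, and the bar is the class median. The amino acid class has 5 genes that rose and 2 that fell around a median of -0.10, while the mitochondrial class has none that rose, 3 that fell and a median of -0.40.

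Among amino acid carriers the heavy and light chain of one transporter rose together. SLC7A5 (LAT1), which brings leucine, phenylalanine and other large neutral amino acids into the cell, had signal of 1498, 3233 and 2212 in hESC and 6434, 12499 and 8989.7 in endoderm, each in the order G1, G1/S and S. All 3 endoderm libraries were above the highest hESC library, and G1/S was highest in each type. The difference was 2.03 ± 0.19 (adjusted p = 0.00279), from 2314 ± 872 to 9307 ± 3045 (mean ± SD, n = 3 each), a ratio of 4.02. SLC3A2 (4F2hc, CD98), the heavy chain that carries LAT1 to the surface, had 919, 1542 and 1656 in hESC and 4354, 4931 and 6304 in endoderm. It rose by 1.95 ± 0.22 (adjusted p = 0.00393), a ratio of 3.79, and again no libraries overlapped. The signal of SLC3A2 over that of SLC7A5 was 0.614, 0.477 and 0.749 in hESC and 0.677, 0.395 and 0.701 in endoderm, so the pair kept ranges that overlap between the types and was lowest at G1/S in both. The regions are at chromosome 16, 86434758 to 86434539, and chromosome 11, 62412504 to 62412918. Coordinates are as deposited, with the larger first for the minus strand, and the submitters' processing notes name hg18 and NCBI36. GENCODE 29 lists 2 pseudogenes of SLC7A5, whose reads the counting could share.

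The other light chains that can pair with SLC3A2 did not pass the test. SLC7A6, an exchanger of cationic and neutral amino acids, differed by 0.08 ± 0.36 (adjusted p = 0.89). For SLC7A7, of the same transport type, the difference was 0.17 ± 0.54 (adjusted p = 0.85), and for SLC7A8 (LAT2) it was -0.82 ± 0.29 (adjusted p = 0.0952). SLC7A11, the cystine and glutamate exchanger, had 88.5, 7.29 and 96.9 in hESC and 25.5, 68.2 and 30.8 in endoderm, with the types overlapping and the low value of each type in a different phase. The other heavy chain, SLC3A1, which serves the cystine and cationic amino acid transporter of kidney and gut, had 0, 3.12 and 30.7 in hESC and 39.4, 4.99 and 24.0 in endoderm (log2 difference 1.84 ± 1.08, adjusted p = 0.263).

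Of the carriers of cationic amino acids, SLC7A1 (CAT1), which takes up arginine and lysine, rose from 39.3, 25.0 and 33.1 to 96.7, 108 and 228 (log2 difference 2.03 ± 0.39, adjusted p = 0.0184). The highest endoderm library was S and the 3 did not overlap with hESC. SLC7A3 (CAT3), of the same substrate class, stood higher than SLC7A1 in every library at 177, 89.5 and 270.0 in hESC and 459, 145 and 387 in endoderm, but its types overlapped and it did not pass (log2 difference 0.86 ± 0.30, adjusted p = 0.0888). SLC7A4, a relative of the cationic carriers, fell from 56.7, 75.0 and 62.6 to 13.1, 21.6 and 10.3 (log2 difference -2.09 ± 0.39, adjusted p = 0.0175). Thus within 1 family SLC7A5 and SLC7A1 rose and SLC7A4 fell.

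Among glutamine and glycine carriers, SLC38A5 and SLC6A9 also rose. SLC38A5 (SNAT5), a sodium-coupled carrier of glutamine, asparagine and serine, had 1967, 737 and 1067 in hESC and 3779, 4187 and 2088 in endoderm (log2 difference 1.47 ± 0.34, adjusted p = 0.0305). Its hESC value was highest in G1 and its endoderm value lowest in S, close together at 1967 and 2088. Without both G1/S libraries its difference was 0.95 (adjusted p = 0.138). SLC6A9 (GLYT1), the glycine carrier, had 132, 156 and 97.5 in hESC and 168, 547 and 483 in endoderm; the endoderm G1 library stood just above the highest hESC value and the other 2 well above it (log2 difference 1.48 ± 0.40, adjusted p = 0.0495). SLC1A5 (ASCT2), which exchanges glutamine for other neutral amino acids, was the highest carrier in hESC by mean signal, with 3499.7, 4897 and 4203 in hESC and 3794, 8639 and 6539 in endoderm. Its hESC and endoderm values overlapped and it did not pass (log2 difference 0.52 ± 0.22, adjusted p = 0.138). Without the hESC G1 library, or without the endoderm one, its difference was 0.73 and it passed. The related glutamine carriers SLC38A2 (log2 difference 0.58 ± 0.27, adjusted p = 0.177) and SLC38A7 (0.57 ± 0.23, adjusted p = 0.134) did not pass.

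The remaining called amino acid carrier fell. SLC43A2 (LAT4), which lets large neutral amino acids pass without sodium or exchange, had 204, 363 and 229.8 in hESC and 87.0, 101 and 63.3 in endoderm (log2 difference -1.63 ± 0.30, adjusted p = 0.0164). LAT1 and LAT4 share leucine and phenylalanine as substrates and moved in opposite directions here. Of the 27 genes classed by family as amino acid carriers, 5 rose and 2 fell, beside 6.9% and 7.6% of all regions. The other 20 did not pass, and the class median was -0.10. The class includes SLC43A3, named below as a purine nucleobase carrier. Without SLC7A5 and SLC3A2, the summed signal of the class was still higher in endoderm. It was 8867, 9245 and 8926 in hESC and 11067, 16844 and 12274 in endoderm. This sum includes SLC1A5 and SLC38A5, both among the 10 highest solute carrier regions of each type. SLC1A5 and SLC38A5 made up most of the sum in every library, and most of its rise. The sum therefore does not describe the class as a whole. Of the 27 genes, 13 lay above 0 in log2 difference. Without the endoderm or the hESC G1/S library, 2 rose (SLC7A5 and SLC3A2).

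**Figure D3:**
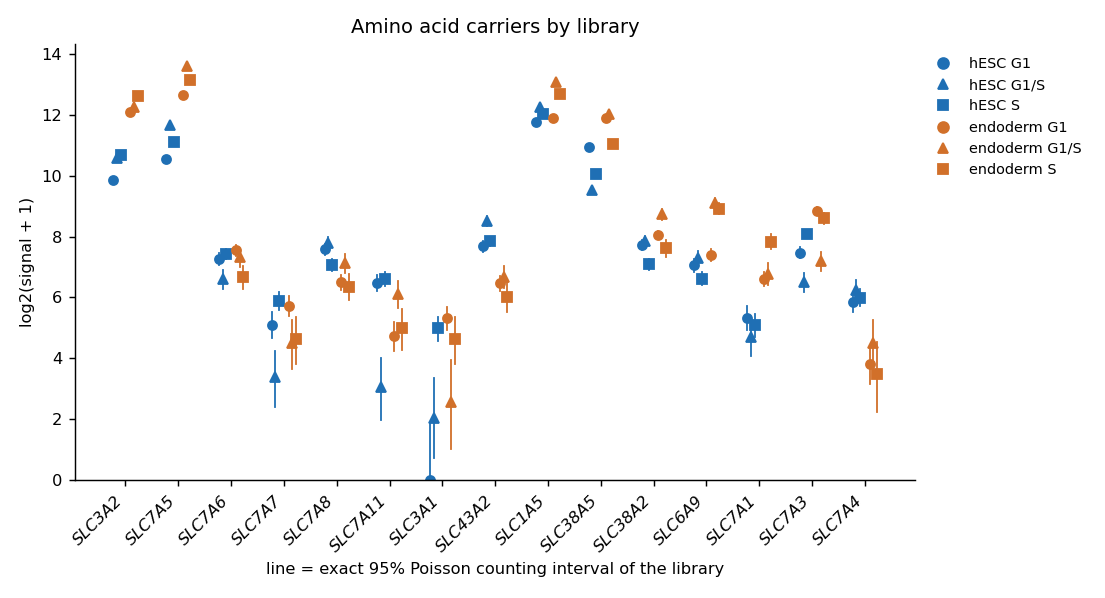
Signal of amino acid carriers in each of the 6 libraries, on a log2(signal + 1) axis, with blue for hESC, orange for endoderm and the marker shape for the phase. SLC7A5 and SLC3A2 have all endoderm points above all hESC points, SLC43A2 and SLC7A4 the reverse, and in SLC1A5 and SLC7A11 the types overlap. Lines are exact 95% Poisson intervals, which cover counting error only.

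A list of genes known to rise when amino acids are short, many of them targets of the transcription factor ATF4, was read beside these carriers, since SLC3A2 and several SLC7 genes are known ATF4 targets. Of its 24 members with a tested region, 12 rose and 0 fell by limma, beside 6.9% and 7.6% of all regions. The median difference was 1.15. At an unadjusted p under 0.05, 18 were higher and 1 lower, edgeR called 0 lower, and DESeq2 called 1 lower. The 12 risen genes include asparagine synthetase ASNS (1.90 ± 0.27, adjusted p = 0.00678), the ATF4 inhibitor TRIB3 (2.02 ± 0.33, adjusted p = 0.0114), DDIT3 (2.04 ± 0.28, adjusted p = 0.00635) and SESN2 (1.19 ± 0.27, adjusted p = 0.0302). The others were CEBPG, ATF3, ATF5, CTH, GARS, WARS, STC2 and DDIT4. Below 0 lay AARS (-1.13 ± 0.35), PHGDH (-0.88 ± 0.40) and NUPR1 (-0.44 ± 0.39), which did not pass by limma. ATF4 itself had 94.6, 8.33 and 154 in hESC and 143, 34.9 and 35.9 in endoderm, overlapping between the types (log2 difference 0.16 ± 0.69, adjusted p = 0.892). Without the endoderm G1/S library 1 of the 24 passed as higher, and without the hESC one 0 did. Of all regions, 4.02% and 2.91% passed in either direction. The part of this response, or of the medium, in the rise of the amino acid carriers was not tested.

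Sequences just before the gene starts are shown for the LAT1 pair and for the risen carriers that hold an E-box, the CACGTG element that MYC and related factors bind. They are from RefSeq on GRCh38.p14, 250 bases up to the start, written 5′ to 3′ on the gene's strand, with CACGTG in capitals.
SLC7A5 (chr16:87869508-87869757, minus strand): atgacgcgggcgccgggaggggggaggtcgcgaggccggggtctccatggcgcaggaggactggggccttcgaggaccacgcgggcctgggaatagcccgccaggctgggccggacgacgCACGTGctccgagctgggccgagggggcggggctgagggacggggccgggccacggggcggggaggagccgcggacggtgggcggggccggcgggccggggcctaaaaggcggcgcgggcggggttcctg
SLC3A2 (chr11:62881449-62881698, plus strand): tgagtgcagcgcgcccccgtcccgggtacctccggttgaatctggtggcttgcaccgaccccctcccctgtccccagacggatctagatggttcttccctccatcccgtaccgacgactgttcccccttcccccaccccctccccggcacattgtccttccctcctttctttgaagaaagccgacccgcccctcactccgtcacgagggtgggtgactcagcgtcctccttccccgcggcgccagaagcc
SLC38A5 (chrX:48470261-48470510, minus strand): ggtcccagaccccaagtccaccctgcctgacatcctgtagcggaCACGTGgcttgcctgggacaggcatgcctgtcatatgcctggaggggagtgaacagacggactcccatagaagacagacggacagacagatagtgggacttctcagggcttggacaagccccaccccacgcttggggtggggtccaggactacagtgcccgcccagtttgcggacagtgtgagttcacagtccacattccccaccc
SLC9A5 (chr16:67248729-67248978, plus strand): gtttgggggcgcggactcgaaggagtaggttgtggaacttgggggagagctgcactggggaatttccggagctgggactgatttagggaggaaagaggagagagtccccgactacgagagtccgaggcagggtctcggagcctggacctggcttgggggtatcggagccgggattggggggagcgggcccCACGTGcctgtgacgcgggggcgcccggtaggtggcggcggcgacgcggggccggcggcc
The E-box begins 130, 206 and 60 bases before the start in SLC7A5, SLC38A5 and SLC9A5, and the SLC3A2 window has none. Of the 139 genes, 109 had an entry among these promoters. Over both strands, CACGTG was in 11 of the 109 (10.1%), against 6.49% of all 27305 promoters. It was in 3 of the 12 risen genes with an entry and in 0 of the 5 fallen ones. TGATGNAAT, the element that ATF4 binds with C/EBP partners, was in 0 of the 109 against 0.916% of all, and the forkhead element TGTTTAC in 2 (1.83%) against 2.98%. None of the 3 motifs contains another. The matches describe letters only and were not tested as sites.

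Sugar carriers were mixed. SLC5A9 (SGLT4), which couples sodium to the uptake of mannose, fructose and glucose, had the second-largest log2 difference of the 14 risen genes, from 26.5, 17.7 and 20.7 to 284, 225 and 139 (log2 difference 3.22 ± 0.35, adjusted p = 0.00372), a ratio of 9.98. The lowest endoderm library, S, was still over every hESC value by a wide gap, and the call held without any one library. The region is at chromosome 1, 48486631 to 48486860. SLC2A1 (GLUT1), the main glucose carrier of proliferating cells, had 1185, 1629 and 2645 in hESC and 1743, 1036 and 1520.0 in endoderm, with overlapping types (log2 difference -0.30 ± 0.31, adjusted p = 0.514). SLC2A11 (GLUT11), a fructose and glucose carrier, fell from 117, 142 and 115 to 58.0, 64.9 and 46.2 (log2 difference -1.14 ± 0.31, adjusted p = 0.0495). Its second region, of lower signal, differed by -0.93 with an adjusted p of 0.113. Of the 8 genes in the class of facilitative hexose carriers (SLC2) and putative sugar carriers (SLC45), 0 rose and 1 fell by limma. Over all regions the shares were 6.9% and 7.6%, and the class median was -0.50. At an unadjusted p under 0.05, with edgeR or with DESeq2, 0 were higher.

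In the same sodium-coupled family as SLC5A9, SLC5A5, the iodide carrier of the thyroid, went the other way. It had 15.9, 16.7 and 21.9 in hESC and 2.76, 0 and 0 in endoderm (log2 difference -3.61 ± 0.87, adjusted p = 0.0351), from 21, 16 and 37 reads in hESC and 4, 0 and 0 in endoderm. The endoderm values are at or near the floor of the method, so the size of the fall is poorly set. The third gene of the family with a region, the multivitamin carrier SLC5A6, did not pass (log2 difference -0.01 ± 0.25, adjusted p = 0.976).

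Carriers of inorganic ions gave 4 genes that rose and 1 that fell of 18, beside 6.9% and 7.6% of all regions. The class median was 0.16. SLC34A2 (NaPi-IIb), the sodium-phosphate carrier of lung and gut epithelium, had the largest log2 difference of the 14 risen genes, from 0, 6.25 and 5.32 to 38.7, 83.2 and 61.6 (log2 difference 4.05 ± 0.58, adjusted p = 0.0076). All endoderm values exceeded all hESC values several times over, although the hESC values rest on 0, 6 and 9 reads. The call was lost without the endoderm G1/S library, where 3 genes passed in all. Its region is at chromosome 4, 25289212 to 25289327.

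Exchangers that set cell pH rose in part. SLC4A2 (AE2), which swaps chloride for bicarbonate, had 439, 579 and 312 in hESC and 842, 1717 and 1118 in endoderm (log2 difference 1.45 ± 0.26, adjusted p = 0.0164), with G1/S highest in both types. SLC9A3 (NHE3), the sodium-hydrogen exchanger of gut and kidney, had 54.5, 68.7 and 60.3 in hESC and 146, 138 and 181 in endoderm (log2 difference 1.33 ± 0.31, adjusted p = 0.0325), and its libraries were tight within each type. SLC9A5 (NHE5), a neuronal relative, had 109.7, 136 and 63.2 in hESC and 224, 308 and 156 in endoderm, where endoderm S exceeded the highest hESC value by little (log2 difference 1.16 ± 0.28, adjusted p = 0.0359). The scaffold SLC9A3R1, which anchors NHE3 at the apical membrane, was among the 10 highest regions of both types and did not pass (log2 difference 0.30 ± 0.23, adjusted p = 0.378). SLC12A4 (KCC1), which moves potassium and chloride out together, was also among the 10 highest of both types, with 2287, 2236 and 1703 in hESC and 1260.1, 1760.1 and 866 in endoderm, and did not pass (log2 difference -0.73 ± 0.23, adjusted p = 0.074). SLC4A11, an SLC4 relative of the corneal endothelium, fell from 295, 405 and 281 to 151, 163 and 134 (log2 difference -1.11 ± 0.27, adjusted p = 0.0353). GENCODE 29 lists 3 pseudogenes of SLC9A3.

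Metal carriers gave 2 genes that rose and 0 that fell of 15 by limma, beside 6.9% and 7.6% of all regions. The class median was -0.01. At an unadjusted p under 0.05, 3 were lower, edgeR called 0 lower and DESeq2 1, which was SLC30A3. SLC39A14 (ZIP14), which brings zinc, iron and manganese into the cell and is known from liver, had 193, 124 and 240.4 in hESC and 493, 296 and 407 in endoderm (log2 difference 1.12 ± 0.27, adjusted p = 0.0366). The endoderm values stood above the hESC values by a narrow gap, between 240.4 and 296. SLC30A2 (ZnT2), which loads zinc into vesicles, had 1.51, 6.25 and 3.54 in hESC and 7.60, 36.6 and 29.1 in endoderm (log2 difference 2.29 ± 0.60, adjusted p = 0.0446) on few reads, 2, 6 and 6 in hESC and 11, 22 and 17 in endoderm. The endoderm G1 value lay just above the highest hESC value. SLC30A3 (ZnT3), its relative of synaptic vesicles, had 70.4, 43.7 and 112 in hESC and 13.1, 31.6 and 17.1 in endoderm and just missed the threshold (log2 difference -1.81 ± 0.50, adjusted p = 0.052). Of 14 other genes of metal handling with a region, the transferrin receptor TFRC rose (log2 difference 1.56 ± 0.33, adjusted p = 0.0236) and the metallothionein MT1G fell (log2 difference -3.30 ± 0.81, adjusted p = 0.0368).

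Among the 28 mitochondrial carriers of the SLC25 family 0 rose and 3 fell by limma, beside 6.9% and 7.6% of all regions, so few calls are involved. The class median was -0.40, and 19 genes lay below 0. For a rise, 1 had an unadjusted p under 0.05, and edgeR and DESeq2 called 0. SLC25A39, which brings glutathione into mitochondria and was the second-highest solute carrier in hESC, had 3104, 2460.2 and 4131 in hESC and 1095, 1684 and 1400.1 in endoderm (log2 difference -1.20 ± 0.27, adjusted p = 0.0275). Every endoderm value was below every hESC value, and the region is at chromosome 17, 39752887 to 39752515. SLC25A45, a family member of less known substrate, fell from 53.7, 34.4 and 52.6 to 8.98, 11.6 and 3.42 (log2 difference -2.51 ± 0.54, adjusted p = 0.0248). Neither passed without the hESC or endoderm G1/S library, or without the hESC or endoderm S library.

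The summed signal of mitochondrial carriers without SLC25A39 was 7164, 7394 and 5810 in hESC and 4988, 5949 and 4127 in endoderm, which overlap only through hESC S and endoderm G1/S. The ADP/ATP carriers SLC25A4 and SLC25A5 did not pass, and a further one, SLC25A6, had no region and is missing from these sums. SLC25A4 differed by -0.54 ± 0.29 (adjusted p = 0.225). SLC25A5 had 27.2, 15.6 and 17.1 in hESC and 51.8, 15.0 and 30.8 in endoderm (log2 difference 0.55 ± 0.43, adjusted p = 0.392). GENCODE 29 lists 9 pseudogenes of SLC25A5 and 2 of SLC25A39, so shared reads make their levels uncertain. SLC25A1, the citrate carrier that feeds fatty acid synthesis, had 1922, 2427 and 1015 in hESC and 714, 1655 and 926 in endoderm (log2 difference -0.70 ± 0.29, adjusted p = 0.134). The oxoglutarate and malate carrier SLC25A11 had 1699.9, 1887 and 1708 in hESC and 1572, 1609 and 858 in endoderm (log2 difference -0.45 ± 0.25, adjusted p = 0.25).

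Among carriers of lipids, organic ions and peptides, 4 genes passed. SLC44A3, a choline-like carrier, rose from 225, 423 and 459 to 1096, 1391 and 1065 (log2 difference 1.74 ± 0.28, adjusted p = 0.0106), while its relative SLC44A2 had 1209, 1499 and 1011 in hESC and 1129.6, 1549 and 1097 in endoderm (log2 difference 0.02 ± 0.22, adjusted p = 0.954). SLC10A3, a relative of the bile acid carriers with no known substrate, rose from 14.4, 14.6 and 22.4 to 58.0, 34.9 and 68.5 (log2 difference 1.57 ± 0.39, adjusted p = 0.0392). SLC17A9, which fills vesicles with ATP, had 68.1, 111 and 56.1 in hESC and 13.8, 6.65 and 8.56 in endoderm (log2 difference -2.89 ± 0.47, adjusted p = 0.0107), a ratio of 8.12, and its highest endoderm library lay far below its lowest hESC library.

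SLC15A3, a proton-coupled carrier of histidine and small peptides in lysosomes, fell from 189.9, 326 and 171 to 47.6, 48.2 and 44.5 (log2 difference -2.21 ± 0.32, adjusted p = 0.00813). Its endoderm values were nearly equal over the phases. The lactate and pyruvate carriers SLC16A1 (log2 difference 0.55 ± 0.28, adjusted p = 0.21) and SLC16A3 (log2 difference 0.08 ± 0.27, adjusted p = 0.861) did not pass, nor did any of the 6 monocarboxylate carriers, 7 vitamin and nucleoside carriers or 7 carriers of sugar and acyl donors into organelles by limma. Class medians were -0.66, -0.46 and 0.29. Of these 20 genes, 2 vitamin and nucleoside carriers were lower at an unadjusted p under 0.05, and edgeR and DESeq2 called 0. The reduced folate carrier SLC19A1 differed by -0.32 ± 0.29 (adjusted p = 0.461).

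Near the threshold, the last genes inside were SLC30A2 (adjusted p = 0.0446), SLC2A11 (0.0495) and SLC6A9 (0.0495), and the first outside were SLC30A3 (0.052), the dicarboxylate carrier SLC13A3 (0.0551) and SLC22A17 (0.058). Among genes with several regions, SLC38A10 differed by -0.48 in its stronger region and 0.33 in the other (adjusted p = 0.238 and 0.475). The regions of SLC26A6 both lay lower in endoderm, by -0.69 and -0.37, without passing. For SLC37A3 they gave -0.29 and -2.72 (adjusted p = 0.726 and 0.0554).

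Transporters outside the name rule were read for comparison. Of 13 ABC transporters, which use ATP directly, ABCC3 (log2 difference -3.27 ± 0.52, adjusted p = 0.00996) and ABCB9 (log2 difference -2.69 ± 0.48, adjusted p = 0.0148) fell, with a list median of -0.10. By limma 0 rose, 1 was higher at an unadjusted p under 0.05, and edgeR and DESeq2 called 0 higher. Of 17 organic anion carriers of the SLCO family, lettered SLC35 genes and aquaporins, the prostaglandin carrier SLCO2A1 rose from 32.5, 26.03 and 36.03 to 271, 288 and 188 (log2 difference 2.93 ± 0.34, adjusted p = 0.00424). SLCO4A1 (log2 difference -1.51 ± 0.38, adjusted p = 0.0397) and the water channel AQP5 (log2 difference -3.08 ± 0.77, adjusted p = 0.0386) fell, and the median was -0.28. Over all regions, 6.9% passed as higher and 7.6% as lower.

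Between the phases 0 of the 139 genes passed by limma in any of the 3 contrasts, as did 0 of all regions (0.0%). At an unadjusted p under 0.05 there were 3 genes for S against G1 (2.16%, against 3.39% of all regions), 18 for G1/S against G1 (12.9%, against 13.7%) and 22 for S against G1/S (15.8%, against 10.6%). With edgeR 0 passed in each contrast, and with DESeq2 2 passed, both for S against G1/S: SLC1A4 (log2 difference 2.75, adjusted p = 0.00696) and SLC38A1 (3.34, adjusted p = 0.02). For the same contrast limma called 3 genes without the hESC G1 library (SLC1A4, SLC38A1 and SLC7A3), 2 without the endoderm G1 library (SLC1A4 and SLC38A1) and 1 without the endoderm S library (SLC38A1). For G1/S against G1 it called SLC1A5 without the hESC G1 library and SLC1A4 without the endoderm G1 library. All phase differences rest on 1 library per type and phase.

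What phase differences there were set G1/S apart. For differences of at least 1 in the same direction in both types, shares were near those over all regions. Other measures differed more. The median S minus G1/S difference was -0.24, beside -0.04 over all regions, with 56 of the 139 genes above 0. From G1 to G1/S, 11 genes were lower by at least 1 on the log2 scale in both types (7.91%, against 7.13% of all regions) and 2 higher (1.44%, against 2.38%). From G1/S to S, 8 were higher in both types (5.76%, against 6.54%) and 2 lower (1.44%, against 1.68%). From G1 to S the counts were 0 higher (against 1.39%) and 2 lower (1.44%, against 1.44%). Opposite differences of at least 1 in the 2 types were seen in 5 genes for S against G1 (3.60%, against 4.61% of all regions), 2 for G1/S against G1 (1.44%, against 4.09%) and 2 for S against G1/S (1.44%, against 2.12%). The endoplasmic reticulum zinc carrier SLC39A7 had 30.3, 1.04 and 16.5 in hESC and 24.2, 1.66 and 15.4 in endoderm, with 1 read in each G1/S library. SLC38A1 (SNAT1), a glutamine carrier, had 46.1, 4.16 and 125 in hESC and 53.9, 11.6 and 34.2 in endoderm, and SLC1A4 (ASCT1), a serine and alanine carrier, 176, 20.8 and 209.7 in hESC and 51.1, 25.0 and 116 in endoderm. In these 3 genes G1/S was the lowest library of each type. SLC26A11, a sulfate carrier, had 12.1, 1.04 and 4.13 in hESC and 26.2, 4.99 and 10.3 in endoderm, with G1/S again lowest in each type.

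Other genes were highest at G1/S. The mitochondrial glutamate carrier SLC25A22 had 85.5, 272 and 131 in hESC and 126, 215 and 202 in endoderm, and its relative SLC25A18 56.0, 78.1 and 28.4 in hESC and 28.3, 99.8 and 35.9 in endoderm, with G1/S the highest library of each type for both. SLC22A17, a receptor for the iron-binding lipocalin, had 865, 1605 and 869.5 in hESC and 592, 928 and 383 in endoderm. It too was highest at G1/S in each type, as was the zinc carrier SLC30A9 with 29.5, 41.6 and 22.4 in hESC and 7.60, 26.6 and 10.3 in endoderm.

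From G1 to S, the differences of one sign in both types were mostly small or on few reads. The purine nucleobase carrier SLC43A3 had 154, 369.6 and 323 in hESC and 168, 255 and 270.4 in endoderm, and the neuronal amino acid carrier SLC6A17 96.8, 132 and 123 in hESC and 51.1, 133 and 142 in endoderm. In both genes G1 was the lowest library of each type. The ornithine carrier SLC25A15 had 17.4, 8.33 and 7.09 in hESC and 24.2, 6.65 and 8.56 in endoderm, with G1 the highest library of each type. SLC39A10, a zinc importer, had 13.6, 13.5 and 13.6 in hESC and 15.9, 1.66 and 0 in endoderm; the endoderm values rest on 23, 1 and 0 reads, and the hESC values were nearly equal.

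These differences moved with base composition. Over the last 500 transcript bases, the solute carrier genes had a median GC content of 53.5%, against 49.5% over the 8819 named regions with a value (85.2% of 10357). Across the 139 genes, the G1/S minus G1 difference had a Spearman rho of 0.54 with GC, 0.29 in hESC and 0.51 in endoderm alone. Over the 8819 named regions with a value the rho was 0.48. Genes are not independent replicates and share the same libraries, so this is a description. The 46 genes lowest in GC had a median difference of -0.60 and the 47 highest 0.35. For endoderm against hESC the rho was -0.09, and for S against G1/S it was -0.55. Of the 4 genes lowest at G1/S named above, SLC38A1 had a GC content of 40.1%, SLC1A4 52.3%, SLC39A7 52.1% and SLC26A11 59.1%. Thus 1 lay below the median of the 8819 named regions and 1 well above it. The part of GC content in the phase differences was not tested.

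**Figure D4:**
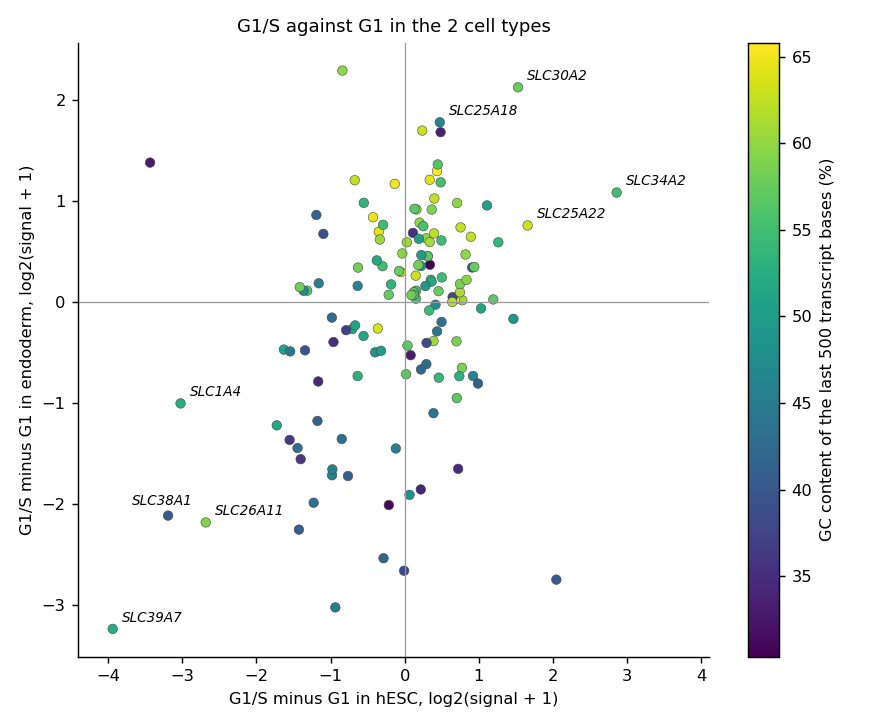
G1/S minus G1 difference of each of the 139 genes in hESC (x axis) and endoderm (y axis), on the log2(signal + 1) scale, coloured by the GC percentage of the last 500 transcript bases. SLC39A7, SLC38A1, SLC1A4 and SLC26A11 lie at the lower left, low in G1/S in both types, and the 46 genes of lowest GC (dark points) have a median difference of -0.60.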

How the data were processed

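Poly(A)-selected RNA was amplified for 15 PCR cycles and read on a Genome Analyzer IIx, per the labels' protocols. Bowtie 0.12.7, CASAVA 1.5 and DESeq 1.5.24, with the builds hg18 and NCBI36, are listed without roles per the submitters' processing notes. The authors deposited a signal: dividing each library by its smallest step gave whole reads for 100.0% of values (tolerance 1e-06), so values were read as reads over a size factor. Regions with log2(value + 1) of at least 1 in 3 of 6 libraries were kept, removing 29 of 14686, and all 139 genes passed. The main test was limma 3.58.1 (R 4.3.3; trend, terms for type and phase, 2 residual degrees of freedom) on log2(value + 1). The recovered reads were tested with edgeR 4.0.16 (quasi-likelihood) and DESeq2 1.42.0 as alternatives. Labels give no replicate numbers; phase pairs the libraries and is a term of the fit. Named genes were the called ones, those nearest the threshold, the extreme phase differences, and partners of called carriers; SLC3A1, SLC7A3, SLC7A6, SLC7A7, SLC7A8, SLC38A7 and SLC5A6 were added after their values were seen. Members and lists were chosen with earlier results of these data known. Python 3.11.15 was used for tables. PCR reads carry no molecular identifiers, so floors cover counting error only. 1 called mitochondrial carrier is counted but not reported here by name.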

Additional observations from a re-analysis of the deposited data

Results flagged for a closer look

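In 3 genes the S minus G1 difference was large and opposite in the cell types, each beyond the counting intervals of the libraries. The difference between the types was not tested, since each type has 1 library per phase. SLC2A12 (GLUT12), a glucose carrier, had 5.30, 9.37 and 37.8 in hESC and 28.3, 8.32 and 8.56 in endoderm; S minus G1 was 2.62 in hESC and -1.62 in endoderm, a difference of 4.24 between the types. SLC25A41, a mitochondrial ATP-magnesium and phosphate carrier, had 28.7, 15.6 and 8.86 in hESC and 12.4, 64.9 and 51.3 in endoderm, with -1.59 in hESC, 1.96 in endoderm and -3.56 between them. SLC12A8, a member of the cation-chloride family, had 20.4, 39.6 and 47.3 in hESC and 25.5, 15.0 and 5.13 in endoderm. Its S minus G1 was 1.17 in hESC, -2.11 in endoderm and 3.28 between them. Its endoderm S value rests on 3 reads, the floor of that library. The hESC G1 and endoderm S values of SLC2A12 also rest on few reads. Over all regions, 4.61% differed by at least 1 in opposite directions, and 3.60% of solute carrier genes did.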

How the results depend on the processing

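Without the intensity trend, 13 solute carrier genes passed between the types (6 higher), and without both G1/S libraries 3 passed (3 higher, 0 lower), where 2.81% of all regions did. Leaving out 1 library gave 3 to 26 in all, 3 to 14 higher and 0 to 12 lower, where 2.91% to 16.4% of all regions passed. Each such fit compares the types in 2 phases. In the same fits, G1/S against G1 called 0 to 1 and S against G1/S 0 to 3. DESeq2 called 2 for S against G1/S. Every other setting gave 20 to 25 between the types. Without the phase term, that is with no replicate block, 20 passed. No called gene changed direction under any setting run, though 21 of the 24 lost the call in at least 1. Among genes that were not called, quantile normalization turned SLC16A3 to -0.0196, SLC7A6 to -0.0217 and SLC44A2 to -0.0606, and SLC44A2 also turned with edgeR (-0.0282) and median centring (-0.0123). Without both G1/S libraries the differences were -0.188 for SLC16A3, -0.233 for SLC7A6, -0.315 for SLC7A7 and 0.0876 for SLC5A6. With 1 library left out they ran from -0.188 to 0.335 for SLC16A3, from -0.0255 to 0.0822 for SLC44A2, from -0.207 to 0.0876 for SLC5A6, from -1.69 to 0.72 for SLC7A11, from -0.233 to 0.498 for SLC7A6 and from -0.315 to 0.874 for SLC7A7. Counts for the gene lists under these settings were added after the data had been seen. The endoderm G1/S and S libraries have the fewest reads, where 13 and 8 solute carrier genes had 3 reads or fewer.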
